A study of Rattus norvegicus with 4 samples.

Results

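The genes described here are 9 genes of the cell cycle brakes and their control. They include the CDK inhibitors Cdkn1a, Cdkn1b and Cdkn1c (p21, p27 and p57, the Cip/Kip family). Further members are the inhibitors Cdkn2a, Cdkn2b and Cdkn2c (p16/Arf, p15 and p18, the INK4 family). The others are the retinoblastoma gene Rb1, its relative Rbl2 (p130), and the ubiquitin ligase gene Mdm2. Mdm2 acts against p53 and is not itself a brake. The 9 genes were taken by symbol: every gene probe whose current rat symbol was 1 of the 9 was used. This gave 15 of 33849 probes and 9 of 12330 named genes. The tissue was the crista ampullaris of the rat, the sensory epithelium of a semicircular canal. Laser capture took first a superficial sheet with the 2 types of hair cell and the supporting cell cytoplasm between them (the hair layer), and then the supporting cell bodies beneath it (the supporting layer). Each layer was measured on 2 single-colour CodeLink whole-genome arrays, with poly(A)+ RNA amplified linearly. Both groups are labelled as rat crista ampullaris with no strain, age or treatment given here, and nothing in the labels ties the 2 arrays of either layer to different animals, so that p-values reflect the spread of these samples alone, and that spread may be technical. The hair layer is a mixture by construction.

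Cell division starts when cyclin-dependent kinases phosphorylate the pocket proteins (Rb1, Rbl2 and Rbl1) and E2F transcription factors are released. INK4 proteins bind the kinases CDK4 and CDK6 so that they cannot pair with D-type cyclins, while Cip/Kip proteins bind assembled cyclin-kinase complexes, mainly those of CDK2. Mature mammalian hair cells and supporting cells rarely divide. Textbook examples of genes that keep inner ear cells out of the cycle are p27 in supporting cells and Rb1 in hair cells.

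The member genes did not move together between the layers. Cdkn1a was 6.64-fold higher in the supporting layer, and Cdkn1c was 2.87-fold higher in the hair layer. Rbl2 was detected in the hair layer alone, and Mdm2 was called 1.27-fold higher there at its brighter probe, a call that most other processing choices ended. Cdkn1b was detected on 1 of 4 arrays, and Rb1 and the 3 INK4 genes on none. Of 15 probes, 5 (of 4 genes) reached the filter for testing, which asked for detection on at least 2 of the 4 arrays; 10 probes did not. Rbl2 and 1 Mdm2 probe met it through the hair layer alone, so a tested difference toward that layer was partly fixed by the filter. Of the 5 tested probes 4 were called by limma at a Benjamini-Hochberg adjusted p under 0.05 over all 16483 tested probes, 3 higher in the hair layer and 1 higher in the supporting layer. In the same fit 67.4% of all tested probes were called, 33.9% higher in the hair layer and 33.5% higher in the supporting layer, so the count of called members is near the background.

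Values are raw intensities, some of which are below 0, as after a background is subtracted, and normalized intensities after quantile normalization between the 4 arrays. A change is the supporting layer minus the hair layer in log2 normalized intensity, with its standard error from limma (n = 2 arrays per layer). Hair layer arrays had medians of 26.5 and 16.98 in raw intensity, and supporting layer arrays of 12.1 and 12.0, and 39.7% to 48.8% of probes were detected (flagged good or saturated). In bulk samples such as these, fewer cells of a type and less RNA per cell cannot be told apart. Hair cell markers went with the label of the hair layer: of 15, 13 were called higher there and 0 in the supporting layer. The largest fitted changes were those of the tip link cadherin Cdh23 and the bundle protein Espn. Both were among 5 of the 15 not detected in the supporting layer. Those 5 entered the test only through the hair layer, so their direction is no independent support. Chrna9 and Atp2b2, detected on all 4 arrays, changed by -2.88 ± 0.11 and -2.80 ± 0.09. Calb2, also detected on all 4, was not called (0.14 ± 0.10). The label of the supporting layer was not borne out in this way by its own markers, of which 6 of 15 were higher in each layer. Tecta (alpha-tectorin) was higher in the supporting layer and Otog (otogelin) in the hair layer. These counts take each gene at its brightest tested probe and depend on that choice. Sox2 was called higher in the hair layer there (-0.74 ± 0.08), while its other tested probe changed by 4.63 toward the supporting layer. Cldn9, called higher in the hair layer, was not detected in the supporting layer.

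Cdkn1a (p21), an inhibitor of cyclin-CDK complexes, lies at chr20:7150820-7161373 (GRCr8, the assembly of all gene positions here). Its 3′ EST probe GE17854 had raw intensities of 158.2 and 130.4 on the hair layer arrays and 619.5 and 563.0 on the supporting layer arrays, all flagged good. Both supporting layer arrays were above both hair layer arrays by a wide margin. After normalization the values were 121.0 and 114.8 against 794.7 and 770.1. The change was 2.73 ± 0.08 (adjusted p = 0.00117 by limma), and the means of the raw values alone differed 4.10-fold in the same direction. Of all tested probes, 857 had a change toward the supporting layer at least as large, Cdkn1a's own included. The second Cdkn1a probe, GE20890, whose accession is the RefSeq transcript, was flagged low on all 4 arrays. It read 9.94 and 7.24 in the hair layer and 1.68 and 9 in the supporting layer, so the 2 probes of the gene disagree on whether it was detected, and the difference rests on the EST probe.

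**Figure D1:**
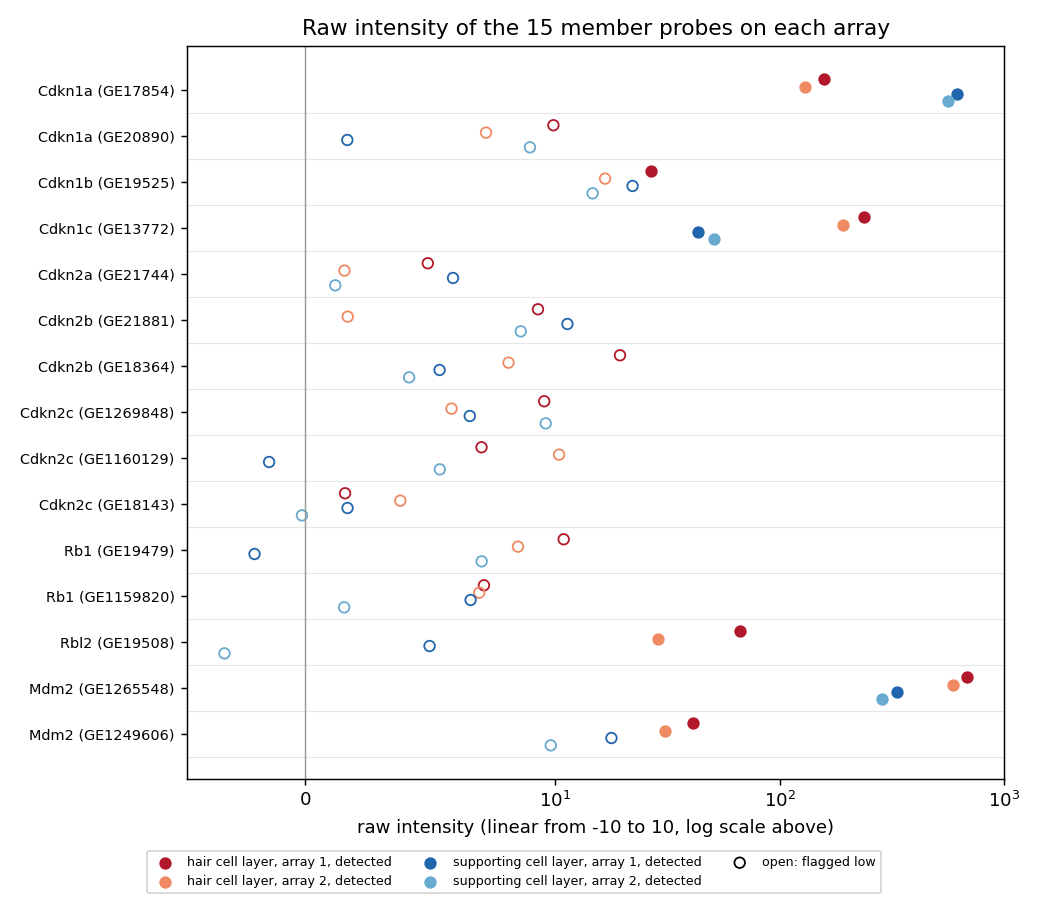
Raw intensity (x axis, linear near 0 and log scale above) of each of the 15 member probes (y axis) on the 4 arrays; filled points were detected and open points were flagged low. Cdkn1a probe GE17854 is highest on the supporting layer arrays (619.5 and 563.0), Cdkn1c, Rbl2 and both Mdm2 probes are highest on the hair layer arrays, and the INK4 and Rb1 probes have open points on every array.

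A promoter window is shown for the called members because they went in opposite directions. The RefSeq promoter table (GRCr8) held 8 of the 9 genes; Cdkn1c had no entry. The windows are the 250 bases before the 1 start that this table uses for each gene, 5′ to 3′ on the gene's strand: Cdkn1a at chr20:7150682-7150931 (plus strand), Rbl2 at chr19:32096412-32096661 (minus strand) and Mdm2 at chr7:55200792-55201041 (minus strand). That start is not the outer end of the annotated gene: the windows of Cdkn1a and Rbl2 lie partly, and that of Mdm2 wholly, inside the gene positions given here. Capitals mark letters of a searched motif on either strand: the GC box GGGCGG, the box CCAAT, the E2F forms TTTCGCG and also TTTCCCG and also TTTGGCG and also TTTGCCG, the cell cycle homology region TTTGAA, and the TATA box TATAAA.
Cdkn1a: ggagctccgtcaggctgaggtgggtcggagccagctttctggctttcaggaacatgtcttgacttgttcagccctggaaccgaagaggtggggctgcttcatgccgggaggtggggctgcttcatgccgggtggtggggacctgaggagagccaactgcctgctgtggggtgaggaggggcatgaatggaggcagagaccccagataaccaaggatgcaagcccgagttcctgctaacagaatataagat
Rbl2: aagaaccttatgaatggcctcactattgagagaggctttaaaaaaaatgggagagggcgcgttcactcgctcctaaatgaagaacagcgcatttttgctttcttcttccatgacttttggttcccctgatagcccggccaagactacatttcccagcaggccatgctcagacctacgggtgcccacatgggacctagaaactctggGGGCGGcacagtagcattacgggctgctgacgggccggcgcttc
Mdm2: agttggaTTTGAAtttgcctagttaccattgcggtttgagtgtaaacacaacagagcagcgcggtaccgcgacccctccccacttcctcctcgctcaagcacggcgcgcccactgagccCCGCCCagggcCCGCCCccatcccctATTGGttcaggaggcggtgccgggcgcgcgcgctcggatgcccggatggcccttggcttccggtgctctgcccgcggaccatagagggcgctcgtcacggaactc
No matches of different motifs overlapped in these 3 windows. The Cdkn1a window held none of these motifs. The Rbl2 window held 1 GC box (30.5% of windows). The Mdm2 window held 2 GC boxes, 1 CCAAT box (34% of windows) and 1 TTTGAA (16.2% of windows). No E2F letters (5.58% of windows) and no TATA box (12.9% of windows) were in these 3 windows. These are matches of letters, and nothing was measured at them.

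Cdkn1b (p27) lies at chr4:169491273-169496500. Its only probe, GE19525, read 26.8 and 16.7 in the hair layer and 22.2 and 14.7 in the supporting layer, and was flagged good on hair layer array 1 alone. It was not tested. The layers overlapped in raw intensity. The normalized values were 17.6 and 16.3 against 30.4 and 21.4, so that the layer with the higher mean depended on the scale, with the hair layer higher before normalization and the supporting layer after it. The lowest detected normalized signal was 13.9 and 18.5 on the hair layer arrays and 26.6 and 28.3 on the supporting layer arrays, so p27 was read at the edge of detection and a difference between the layers was not detectable.

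Cdkn1c (p57), the imprinted member of the family, lies at chr1:208084801-208087680. Its probe GE13772 was flagged good on all 4 arrays, with raw intensities of 236.8 and 191.6 in the hair layer and 43.4 and 51.1 in the supporting layer. The layers did not overlap, and the direction was opposite to that of Cdkn1a. After normalization the values were 180.8 and 166.5 against 55.5 and 66.1. The change was -1.52 ± 0.13 (adjusted p = 0.00354 by limma). The scanner file gives this probe an EST accession and the platform annotation another sequence of the same gene; the file and the platform differed in this way for 3 of the 15 member probes.

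The INK4 genes were flagged low on all 4 arrays. Cdkn2a, which encodes p16 and, in another reading frame, p19Arf, and its neighbour Cdkn2b lie at chr5:109100763-109114448 and chr5:109123308-109134906, and Cdkn2c at chr5:129639736-129645564. Their 6 probes gave 0 detected spots of 24. The Cdkn2a probe GE21744 read 4.91 and 1.57 in the hair layer and 5.92 and 1.2 in the supporting layer. The Cdkn2b probe GE21881 read 9.32 and 1.70 against 11.4 and 8.63, and the Cdkn2b probe GE18364 read 19.5 and 8.14 against 5.38 and 4.16. For comparison, the median negative control read 5.36 and 4.78 on the hair layer arrays and 4.28 and 4.15 on the supporting layer arrays. Some Cdkn2b values were above these medians, up to 19.5 on hair layer array 1. The spread of the controls was not computed, so whether such values differ from control level was not tested. The 3 probes of Cdkn2c (p18) read between -1.45 and 10.4: GE1269848 gave 9.57 and 5.86 against 6.59 and 9.63, GE1160129 gave 7.06 and 10.4 against -1.45 and 5.39, and GE18143 gave 1.59 and 3.81 against 1.69 and -0.14. A flag of low is a limit of these probes and not a statement that the genes were silent; 44.4% of all gene probes were detected on no array.

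Of the pocket proteins, Rb1 (chr15:54780858-54911989) was detected on no array. Its probe GE19479 read 10.9 and 8.52 in the hair layer and -2.04 and 7.07 in the supporting layer, and GE1159820 read 7.16 and 6.97 against 6.62 and 1.56; both carry the same accession. A further probe, GE22047, which the file describes as from the retinoblastoma gene and for which no symbol was given here, was low on all 4 arrays too (14.5 and 7.29 against 7.39 and 4.67) and was not counted as a member.

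Rbl2 (p130), the pocket protein that binds E2F4 in resting cells, lies at chr19:32049690-32096467. Its probe GE19508 had raw intensities of 66.8 and 28.8 in the hair layer, both flagged good, and of 4.98 and -3.24 in the supporting layer, both flagged low. After normalization the hair layer values were 49.9 and 25.5. The probe entered the test only through the layer where it is high, so its call toward the hair layer (adjusted p = 0.0284 by limma) is no independent support; with no filter on dim probes it was not called (adjusted p = 0.0844). Against the lowest detected signals of the supporting layer arrays the hair layer was 1.30-fold higher. The lower hair layer value, 25.5, was below both of those signals (26.6 and 28.3). Raised to the highest of the 4 detection limits, the values differed by -0.41 and were not called (adjusted p = 0.344). Without hair layer array 1 or array 2 the adjusted p was 0.135 and 0.0911.

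**Figure D2:**
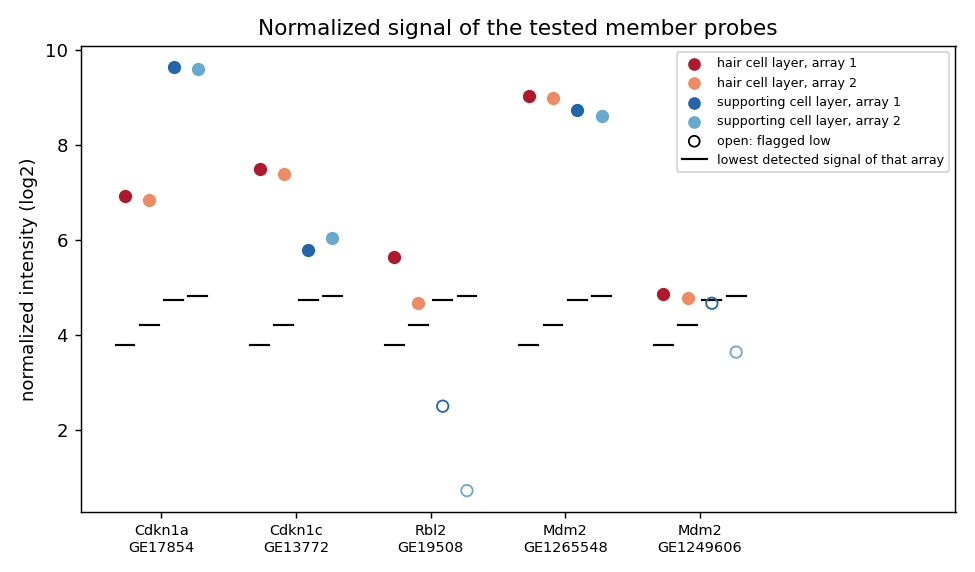
Normalized intensity (y axis, log2) of the 5 tested member probes (x axis) on each array; open points were flagged low and black bars mark the lowest detected signal of that array. For Cdkn1a, Cdkn1c and Mdm2 probe GE1265548 all points lie above the bars, while the supporting layer points of Rbl2 and of Mdm2 probe GE1249606 lie below them.

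Mdm2, at chr7:55176558-55201757, had 2 tested probes. The brighter, GE1265548, had raw intensities of 685.3 and 593.7 in the hair layer and 331.8 and 284.5 in the supporting layer, all flagged good. The raw values differed 2.08-fold and the normalized values less: 518.2 and 509.4 against 424.0 and 386.9, a change of -0.34 ± 0.09 (adjusted p = 0.0367 by limma). The layers did not overlap on either scale. Median scaling of the arrays gave a change of -0.27 (adjusted p = 0.490), and leaving out any 1 of the 4 arrays gave an adjusted p between 0.0507 and 0.139. The other probe, GE1249606, read 41.4 and 30.9 in the hair layer, both flagged good, and 17.8 and 9.83 in the supporting layer, both flagged low. The layers could not be separated at this probe by limma (adjusted p = 0.226), and its normalized hair layer values of 28.8 and 27.4 were close to the lowest detected signals of the supporting layer arrays. Without supporting layer array 1 it was called (adjusted p = 0.0102).

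In all 5 tested member probes, 2 of which were detected in the hair layer alone, the layers did not overlap, which was so for 89.2% of all tested probes measured on the 4 arrays. The changes of Cdkn1a and Cdkn1c kept their direction and stayed called under each of the alternatives run, 13 for single probes. The range was 2.65 to 2.85 for Cdkn1a and -1.64 to -1.36 for Cdkn1c.

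**Figure D3:**
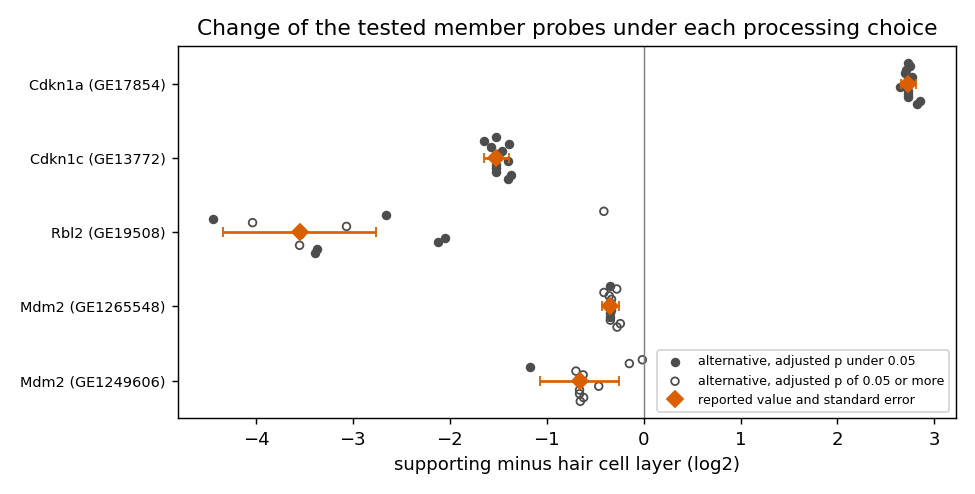
Change (x axis, log2, supporting minus hair layer) of the 5 tested member probes (y axis); diamonds are the reported values with their standard error and small points the alternatives, filled where the adjusted p was under 0.05. Cdkn1a stays near 2.73 and Cdkn1c near -1.52 with filled points only, while Rbl2 runs from -4.44 to -0.41.

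Some markers of other cells also differed between the layers. For scale, 28.2% of all 7771 tested genes were called higher in the supporting layer and 37.3% in the hair layer. Several of the counts below are near these shares. Of 9 tested endothelial and pericyte markers 7 were higher in the supporting layer, as Cdkn1a was, and 1 in the hair layer. The summed normalized intensity of the 8 measured on all arrays was 507 and 581 in the hair layer and 1561 and 1570 in the supporting layer; Rgs5 and Emcn were not detected in the hair layer, and Kdr had no tested probe. Connective tissue markers (6 tested) were called higher in the supporting layer for 3 genes and in the hair layer for 1, with sums of 992 and 1006 against 2299 and 2356. Fbn1 was not detected in the supporting layer. Of 6 tested immune markers 3 were higher in the hair layer and 2 in the supporting layer. The 4 of them measured on all arrays summed to 326 and 312 against 111 and 97.0, with Aif1, C1qa and Cd68 not detected in the supporting layer (1 spot of Cd68 was left out by its quality flag). Schwann cell markers (7 tested) were divided 2 to 3 between the supporting and the hair layer, with sums of 3227 and 3251 against 3614 and 3564. Ncam1, called higher in the hair layer, was not detected in the supporting layer. The 4 tested neuronal markers were divided 2 to 2, with sums of 244 and 270 against 369 and 348. Nefl and Nefm, the 2 called higher in the hair layer, were not detected in the supporting layer. Called markers not detected in 1 layer were Rgs5, Emcn, Fbn1, Aif1, C1qa, Cd68, Ncam1, Nefl and Nefm. They entered the test only through the other layer, so their direction is no independent support. The part of these other cell types in the changes of the members was not tested.

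The partners and targets of the member genes were followed in 6 lists of 91 genes, of which 73 had a named probe and 40 a tested one. At each gene's brightest tested probe, 13 were called higher in the supporting layer and 7 higher in the hair layer, against 28.2% and 37.3% of all 7771 tested genes. Some of these genes, among them Aurka, Ccnb1, Ccne1 and Cdk1, were detected only in the layer where they were higher. Their direction was partly fixed by the filter. The median change of the 40 genes was 0.05, and that of all tested genes was -0.11. Of the closest relatives, Rbl1, Tp63, Mdm4 and Cdkn2aip had no tested probe and no detected spot. Usp7, which removes ubiquitin from Mdm2, changed by 0.06 ± 0.11 and Cdk5rap3 by 0.07 ± 0.08, neither past the test. No symbol match was found for Cdkn2d, Cdkn3 or Tp73.

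Among the G1 cyclins and their kinases, 3 of 6 tested genes were higher in the supporting layer and 0 in the hair layer. 1 of these, the cyclin gene Ccne1, whose product activates CDK2, was not detected in the hair layer and so entered the test only through the layer where it is high. It was 2.35-fold higher against the lowest detected signals of the hair layer arrays, and with all values raised to the highest of the 4 limits its change was 0.41. Its call was lost with no filter (adjusted p = 0.0646) and without supporting layer array 1 or array 2 (0.0633 and 0.0561). With no filter 1 gene of the list was called. The cyclin gene Ccna2 had a fitted change in the other direction (-3.10 ± 0.97) and was not called (adjusted p = 0.0607 by limma). It was detected in the hair layer alone and entered the test only through it. The D-type cyclin gene Ccnd3 rose by 0.82 ± 0.07 toward the supporting layer at the brighter of its probes, and the other (-1.13) missed the threshold; the call was lost with the scanner software's normalized values (adjusted p = 0.0987). The INK4 target Cdk4 read 331.8 and 303.1 against 199.1 and 180.2, which normalization brought to -0.04 ± 0.08, short of the threshold. Probes for Ccnd1, Ccnd2 and Cdk6, the other direct partners, were detected on no array.

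Of 7 tested genes of the E2F factors and the DREAM complex, in which Rbl2 acts, 2 were higher in the supporting layer and 0 in the hair layer. These were E2f6 (0.39 ± 0.07), whose other probe had the opposite sign and did not pass the test, and Mybl2 (0.57 ± 0.16), and both calls were lost under median scaling (adjusted p = 0.224 and 0.186). E2f4, the main E2F partner of Rbl2, changed by -0.02 ± 0.09 and did not pass the test. Among genes of p27 turnover, 3 of 10 tested were higher in the supporting layer and 2 in the hair layer. Cks1b, the cofactor that lets the SCF ubiquitin ligase recognise p27, read 26.8 and 15.03 in the hair layer and 251.6 and 222.4 in the supporting layer, a fitted change of 4.26 ± 0.12 (adjusted p = 0.00117). It was detected on 1 of the 2 hair layer arrays, so the size of that change is not fully measured; with values raised to the highest detection limit it was 3.46. Its receptor partner Skp2 was detected on no array. The ligase scaffold gene Cul4a was higher in the hair layer (-1.36 ± 0.11). Ubac1 (0.44 ± 0.07) and the ubiquitin-conjugating enzyme gene Cdc34 (-0.65 ± 0.12) were called in opposite directions, and both calls were lost under median scaling (adjusted p = 0.168 and 0.157) and with the replicate block (0.0517 and 0.06). Calls in the list numbered 5, and 2 with no filter or with the block.

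All 6 tested genes of S phase and mitosis were called, 4 higher in the supporting layer and 2 higher in the hair layer. Calls were common in this fit: 28.2% of all 7771 tested genes were called toward the supporting layer and 37.3% toward the hair layer. The list as a whole was not tested. The other 12 genes of that list with a named probe had none that was tested. The replication helicase gene Mcm6 read 93.5 and 80.8 in the hair layer and 460.7 and 474.9 in the supporting layer, a change of 3.12 ± 0.09 (adjusted p = 0.00117). The other 3 genes named here were detected in 1 layer alone and entered the test only through it, so their direction is a description. The mitotic kinase gene Cdk1 was detected in the supporting layer alone, at both of its probes. At the brighter probe it was 6.99-fold higher there against the lowest detected signals of the hair layer arrays (a change of 1.99 with values raised to the highest detection limit). The mitotic kinase gene Aurka and the cyclin gene Ccnb1 were detected in the hair layer alone. They were 4.83-fold and 1.79-fold higher there against the lowest detected signals of the supporting layer arrays (-2.23 and -0.80 with values so raised). Division markers Mki67 and Top2a were flagged low on all 4 arrays.

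**Figure D4:**
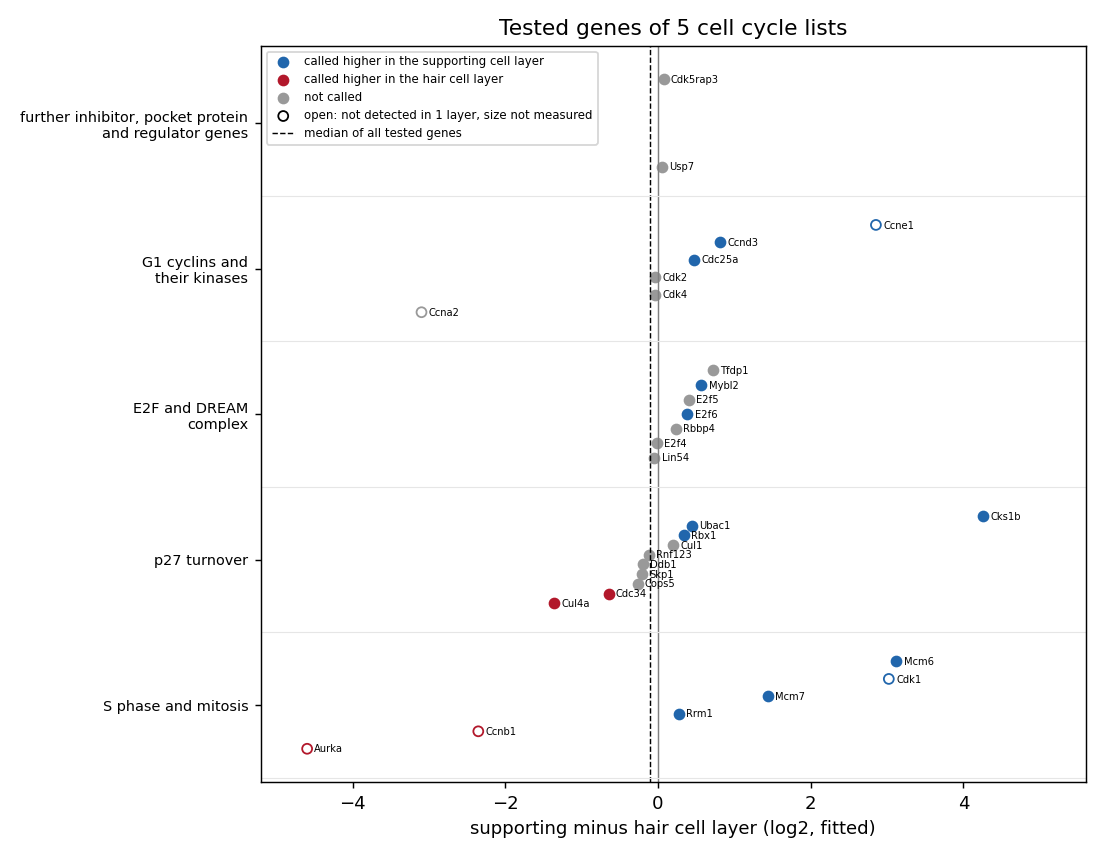
Fitted change (x axis, log2, supporting minus hair layer) of the tested genes of 5 of the 6 lists (y axis), coloured by call; open points were not detected in 1 layer, so their size is not measured, and the dashed line is the median of all tested genes (-0.11). Cks1b, detected on 1 hair layer array, Mcm6 and Cdk1 have the highest fitted values and Aurka the lowest.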

How the data were processed

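The scanner software was CodeLink Expression Analysis 4.0.0.23520, per the file headers. The authors deposited a raw intensity for each spot, a normalized intensity (raw divided by the array median) and a flag; the flag letters were read by their usual CodeLink meaning, since the headers do not define them. The normalized intensity matched the series table within 1e-06 in all 35125 rows for 3 arrays. For the second supporting layer array the table was displaced by 2 rows, so the table served only to link probes to the platform annotation. Symbols were updated through RefSeq (GRCr8), and 16922 of 33849 gene probes had a gene.

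Control spots and spots flagged contaminated, irregular or failed were left out. Raw intensities were quantile-normalized between arrays, given a floor at 0.1 of their median (1.65) and log2-transformed in R 4.3.3. Probes detected on at least 2 arrays were tested with limma 3.58.1 (lmFit and eBayes, two-sided, without a block), and p-values were adjusted by Benjamini-Hochberg over 16483 probes. The fit was also run on simulated data, in which all probes had the same spread and few were changed. In these data the spread differed between probes and 67.4% of tested probes were called. The simulation therefore does not measure the error rate here. A fold against the lowest detected signals compares the mean log2 value of the brighter layer with, per array, the higher of the lowest detected signal and the probe's own value. It is not a strict lower bound, because spots flagged low could read above the lowest detected signal of their array. The Cdkn1b probe, for example, was flagged low at 30.4 on supporting layer array 1, where the lowest detected signal was 26.6. Named genes were every member probe, the 2 called genes with the largest fitted change in each direction of a pathway list, the tested close relatives, and the brightest and most changed markers of each cell type; the text gives part of the markers so chosen, and other genes named were chosen after values were seen. Members and lists were chosen with earlier results of these data known. The number of arrays limits the precision. Some items, among them 1 of the 6 gene lists, are not reported here.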

Additional observations from a re-analysis of the deposited data

How the results depend on the processing

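Of 22 single probes recomputed, some of which are not reported here, 19 kept their direction under every alternative run. The mean over all tested probes of a gene turned Ccnd3 to -0.16 and E2f6 to -0.69, and leaving out supporting layer replicate 1 turned Usp7 to -0.051 (without 1 replicate it ranged from -0.051 to 0.167); none of these 3 values was called. Probes called numbered 11112; the count was 6871 with the scanner software's normalized values and 6654 with no filter on dim probes; the count without 1 replicate ranged from 7182 to 10009, lowest without hair layer replicate 1. Called member probes numbered 4, against 2 with no filter and 2 to 4 without 1 replicate, the lowest without either hair layer replicate; Cdkn1a and Cdkn1c were among them each time. Called list genes numbered 20, against 13 with no filter, and 13 to 17 without 1 replicate. A layer left with 1 array was assumed to vary like the other. Replicate numbers are shared by the layers, but the labels do not say whether same-numbered arrays were paired. The deviations of same-numbered arrays correlated at -0.0022. With 2 arrays per layer this is a single pair of differences and cannot decide whether the arrays were paired. With the replicate block 8702 probes, 3 member probes and 13 list genes were called. Median scaling and the scanner values shifted the median of all tested probes to 0.10 and 0.14, from 0.01. The causes of these differences were not tested. Signal near background limits the 10 member probes that were not tested.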
